A study of Mus musculus with 6 samples.

Results

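The TNF ligand and receptor superfamilies were examined in sphere cultures of mammary tumours and of mammary glands from before tumours could be felt. The members were chosen by symbol: all numbered Tnfsf and Tnfrsf symbols plus Tnf, Lta, Ltb, Ltbr, Cd40, Cd27, Cd70, Edar, Eda2r and Ngfr, without the ligand and receptors of the RANK system. This gave 39 of the 24063 symbols in the deposited tables: 14 ligands, 6 receptors with a death domain, 15 receptors that bind TRAF adaptors, 3 decoy receptors and 1 read-through symbol, Tnfsf12Tnfsf13. All but 1 of them, 38 of 19893 symbols, had a row in all 6 libraries.

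All cells came from FvB mice that carry HER2/Neu under the MMTV promoter, which is active in mammary epithelium. There were 3 primary tumour (PT) libraries, from tumours of animals over 20 weeks old, and 3 early lesion (EL) libraries, from mammary glands at 14 to 18 weeks with no palpable tumour. The cells of both groups were grown for 7 days as mammospheres without attachment, with no sort of cell types, and polyadenylated RNA was sequenced. For the EL samples the tissue is given as mammary with lung beside it. Whether replicates are separate mice is not stated, so a p-value here reflects variation among libraries and may be technical.

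Ligands of the TNF superfamily are mostly trimers that sit on the cell surface or are cut from it. Their receptors carry cysteine-rich repeats outside the cell and signal in one of several ways: through a death domain that can start caspase-dependent or kinase-dependent cell death, through TRAF adaptors that lead to NF-kB and stress kinases, or not at all, as decoys. In the mammary gland these proteins are known from epithelial survival and involution, from inflammation, and from the exchange of signals between tumour cells, stroma and immune cells.

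Sequences are shown for some members, and no link between promoter motifs and the counts was tested. For 31 of the 39 members RefSeq (GRCm38.p6) gave a promoter window, 250 bases before to 50 bases after the annotated start. Those without a window were Cd40, Cd70, Tnfrsf10b, Tnfrsf22, Tnfrsf26, Tnfsf4, Tnfsf9 and Tnfsf12. Tnf and Tnfsf13 were the ligands higher in PT and Tnfrsf9 was a receptor lower in PT. Their windows follow on the gene's strand, with matches to any motif searched in capitals: TATAAA in Tnf (chr17:35201958-35202257, minus strand) 29 bases before the start, TGAGTCA in Tnfsf13 (chr11:69685505-69685804, minus strand) 133 bases before it, and TGAGTCA in Tnfrsf9 (chr4:150927749-150928048, plus strand) 15 bases before it.
Tnf: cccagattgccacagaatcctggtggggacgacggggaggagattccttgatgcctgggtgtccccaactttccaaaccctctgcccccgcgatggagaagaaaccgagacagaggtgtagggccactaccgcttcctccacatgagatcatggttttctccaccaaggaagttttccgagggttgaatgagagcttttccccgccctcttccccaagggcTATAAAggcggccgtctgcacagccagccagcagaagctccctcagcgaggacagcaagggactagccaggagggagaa
Tnfsf13: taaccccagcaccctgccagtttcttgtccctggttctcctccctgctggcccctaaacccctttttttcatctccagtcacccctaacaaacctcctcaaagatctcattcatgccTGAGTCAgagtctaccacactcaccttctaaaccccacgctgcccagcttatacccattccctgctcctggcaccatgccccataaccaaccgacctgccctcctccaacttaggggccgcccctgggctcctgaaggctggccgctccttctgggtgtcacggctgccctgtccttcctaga
Tnfrsf9: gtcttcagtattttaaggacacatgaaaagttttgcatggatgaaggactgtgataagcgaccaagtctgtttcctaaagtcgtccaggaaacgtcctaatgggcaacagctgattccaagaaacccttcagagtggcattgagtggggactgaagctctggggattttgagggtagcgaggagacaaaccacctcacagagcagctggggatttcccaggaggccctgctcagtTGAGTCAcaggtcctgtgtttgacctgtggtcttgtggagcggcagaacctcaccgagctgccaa

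The motifs were searched on both strands, and no base of these windows lay in a pair of motifs. The AP-1 motif TGANTCA was found in 5 of the 31 member promoters (Tnfrsf8, Tnfrsf9, Tnfsf13, Tnfsf13b and Tnfsf14) and in 7.81% of 32851 promoters. The NF-kB motif, GGGA and TTCC with 2 free bases between them, was found in 1 member promoter, that of Ltb, and in 1.47% of all. TATAAA was found in 6 member promoters (Eda2r, Lta, Tnf, Tnfrsf17, Tnfrsf23 and Tnfsf18) and in 13.6% of all. The interferon-type motif, GAAA repeated after 2 free bases, was found in 4 (Tnfrsf14, Tnfrsf17, Tnfrsf1b and Tnfsf13b) and in 3.44% of all. Members with TATAAA included Tnf (higher in PT), Tnfrsf23 (lower) and Lta (not called), and those with TGANTCA included Tnfsf13 (higher) and Tnfrsf9 (lower).

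The decoy receptors Tnfrsf22 and Tnfrsf23 are near copies of each other, which limits how far their counts can be told apart. Over 513 aligned coding bases 454 were identical (88.5%), against 61.3% between Tnfrsf22 and Tnfrsf26 and 56.6% between Tnfrsf23 and Tnfrsf26. The most alike coding stretch of 150 bases is shown 5′ to 3′ from the GENCODE M21 transcripts (chromosome 7, minus strand), with the 5 differing bases in capitals. Counted from 1 at the 5′ end, with the base of Tnfrsf22 first, these are C22G, G29A, C32T, A63G and G69A.
Tnfrsf22: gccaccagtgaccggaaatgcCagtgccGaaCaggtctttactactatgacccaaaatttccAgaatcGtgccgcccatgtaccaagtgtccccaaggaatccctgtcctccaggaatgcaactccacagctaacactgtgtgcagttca
Tnfrsf23: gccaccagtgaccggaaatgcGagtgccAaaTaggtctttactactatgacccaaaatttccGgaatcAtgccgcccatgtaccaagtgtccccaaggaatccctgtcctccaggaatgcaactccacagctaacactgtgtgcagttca

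Library totals over transcripts lay between 78054335 and 85126630 counts in PT and between 69759793 and 73654058 in EL. The table of EL replicate 1 is incomplete, with 27664 rows against 33068 in the others. Genes were compared in the 13844 symbols that passed the filter on low counts. Levels are in CPM, that is counts scaled by TMM to the same total over these symbols in each library. Summed markers of the luminal epithelium were 9449 to 9822 CPM in PT and 2613 to 2676 CPM in EL, and all 11 were higher in PT. Fibroblast markers were 620 to 742 CPM in PT and 62323 to 66722 CPM in EL, with all 10 lower. Endothelial markers (all 10 lower) summed to 7.80 to 9.09 CPM in PT and 223 to 239 CPM in EL, and pericyte markers (all 6 lower) to 115 to 124 CPM in PT and 1353 to 1556 CPM in EL. Macrophage markers, 12 of 13 higher, summed to 1470.5 to 1574 CPM in PT and 780 to 951 CPM in EL. Adipocyte markers summed to 3.02 to 3.50 CPM in PT and 25.1 to 29.2 CPM in EL. Most of that sum was Fabp4, while Adipoq had 0 counts in PT and 10 in EL, Plin1 0 in PT and 2 in EL, and Lep 0 in both groups. Schwann and glial markers (3 higher, 2 lower) summed to 608 to 614 CPM in PT and 214 to 227 CPM in EL, mostly from Sox10 and Mbp. Basal epithelial markers (3 higher, 5 lower) summed to 604 to 637 CPM in PT and 483 to 532 CPM in EL. In bulk RNA, fewer cells of a type and less RNA per cell cannot be told apart, and the part of these shifts in the results on the superfamilies was not tested. The transgene's endogenous form Erbb2, whose counts may include rat Neu reads, averaged 3085.5 ± 102 CPM in PT and 1730.5 ± 158 CPM in EL (SD, n = 3 each).

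**Figure D1:**
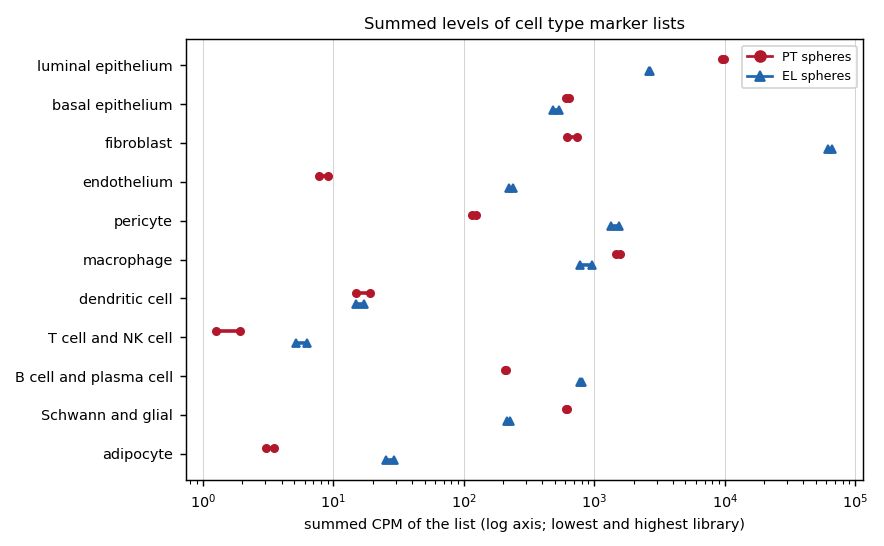
Summed CPM (log axis) of each cell type marker list in PT and EL spheres, with the lowest and highest library of a group joined by a line. Fibroblast, endothelial and pericyte sums lie lower in PT, luminal and macrophage sums lie higher, and the dendritic cell sums overlap.

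Most superfamily members differed between the groups, as did 80.7% of all genes tested, and the larger differences were mostly decreases. Decreases over 2-fold also outnumbered increases among all genes, at 19.4% against 9.43%. The ligands Tnf and Tnfsf13 and the receptors Edar and Cd27 were over 2-fold higher in PT spheres. Cd40, all 3 decoy receptors, Ngfr, Tnfrsf9 and the co-stimulatory ligands Tnfsf8 and Tnfsf9 were lower, by 3.47-fold for Tnfrsf22 up to 30.8-fold for Cd40. The lymphotoxin genes Lta and Ltb and their receptor Ltbr did not pass the test. Of the 38 members in all libraries 32 passed the count filter, and edgeR's quasi-likelihood test called 25 of them at an adjusted p under 0.05, 8 higher and 17 lower in PT.

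Because the groups differed so widely, these counts need the background. Among all genes tested 80.7% were called, 39.9% higher and 40.8% lower, so the 78.1% of members called is near the background. Of the tested members 25% were higher and 53.1% lower. Over 2-fold, 4 members were called higher and 13 lower, where 9.43% and 19.4% of all genes were. The groups' libraries did not overlap for 24 of the 32 members (75%), against 82.7% of all genes. The median log2 fold change of the tested members (PT over EL) was -0.31, against 0.0049 over all genes, and their median absolute log2 fold change was 1.06, against 0.45. Against a 2-fold minimum, a stricter test, edgeR called 14 members, 3 higher and 11 lower, and 24.6% of all genes. The members differ in length and level, and whether they stand apart from other genes was not tested.

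**Figure D2:**
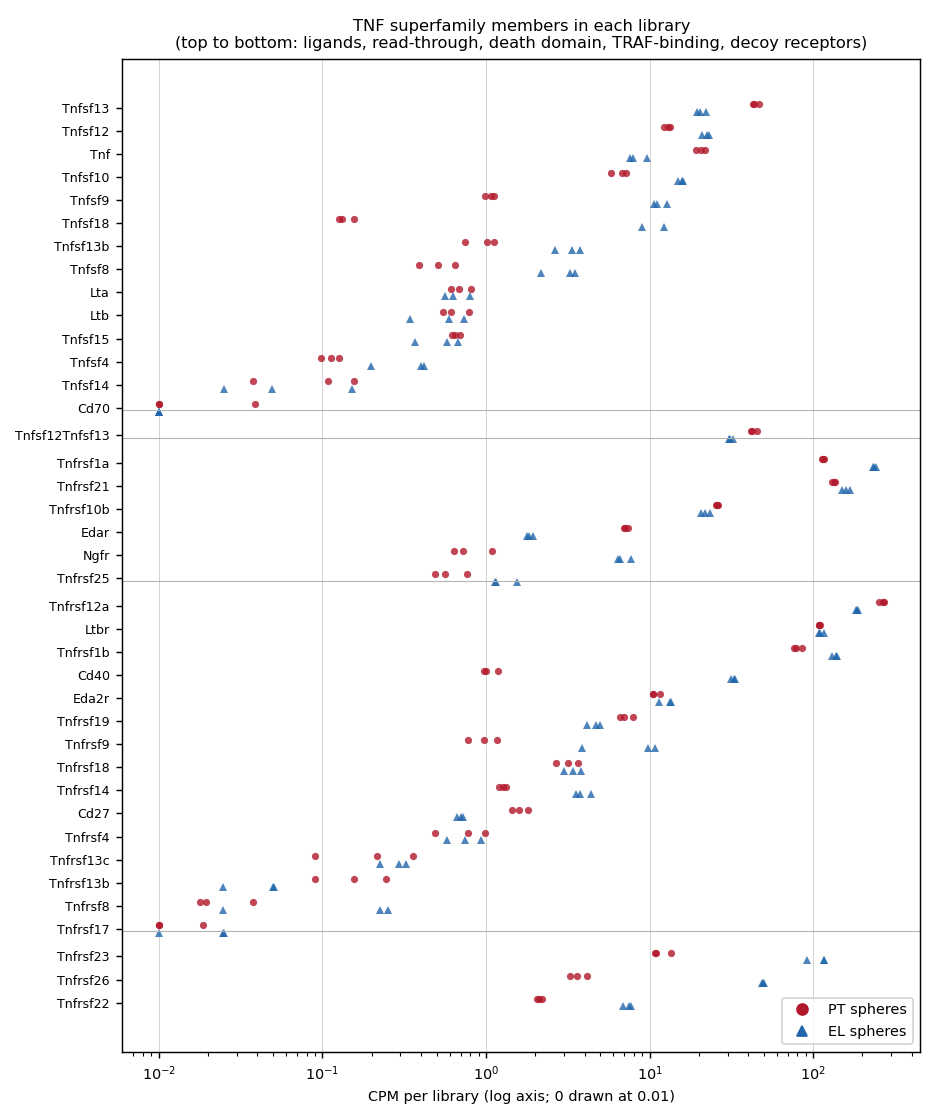
CPM of each superfamily member in every library (log axis, 1 point per library, PT circles above EL triangles, a value of 0 drawn at 0.01), with the members grouped by role. For most members the PT and EL points do not overlap, as for 82.7% of all genes tested. The widest gaps are those of Tnfsf18, Cd40, Tnfrsf26 and Tnfsf9.

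Among the ligands, 10 of the 13 with a row in every library were tested, 2 were higher and 5 lower in PT, and 3 were not called. Of all genes tested, 39.9% were higher and 40.8% lower. Tnf, the founding inflammatory cytokine of the family (chromosome 17, 35199367 to 35202007 on mm10), stood at 20.6, 21.7 and 19.2 CPM in the PT libraries and at 9.58, 7.55 and 7.90 CPM in the EL libraries. Every PT library lay above every EL library, a 2.45-fold difference (log2 fold change 1.30, SE 0.085; edgeR adjusted p = 1.16e-08). Macrophage markers, which include genes of a main source of TNF, moved the same way, with 12 of 13 higher and none lower. Of these, Cd14 averaged 481 ± 4.99 CPM in PT and 240 ± 3.87 CPM in EL. C1qa averaged 49.0 ± 4.26 CPM in PT and 8.62 ± 1.27 CPM in EL. The part of macrophages in the Tnf result was not tested.

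Tnfsf13 (APRIL, a ligand for B lineage receptors that also binds proteoglycans) and Tnfsf12 (TWEAK, the ligand of Tnfrsf12a) are neighbours on chromosome 11 and went in opposite directions. Tnfsf13 had 43.6, 46.8 and 43.0 CPM in PT and 19.6, 20.2 and 22.1 CPM in EL. Tnfsf12 had 12.9, 13.3 and 12.3 CPM in PT and 22.4, 23.1 and 20.8 CPM in EL. Neither gene overlapped between the groups, and the log2 fold changes were 1.11 (SE 0.054; edgeR adjusted p = 4.82e-10) for Tnfsf13 and -0.78 (SE 0.060; edgeR adjusted p = 5.28e-08) for Tnfsf12. The read-through symbol Tnfsf12Tnfsf13, which joins both genes, had 41.4, 45.6 and 42.5 CPM in PT and 30.5, 32.1 and 31.0 CPM in EL (log2 fold change 0.47, SE 0.046). These 3 values are uncertain, since 69.9% of the exon bases of Tnfsf13, 50.7% of those of Tnfsf12 and 78.1% of those of the read-through transcript lie in an overlapping gene, and reads there cannot be assigned to 1 of them.

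Tnfsf10 (TRAIL, which can trigger death through Tnfrsf10b) was lower in PT, with 5.77, 7.17 and 6.79 CPM in PT and 15.7, 15.9 and 14.9 CPM in EL. The groups were apart, with a log2 fold change of -1.24 (SE 0.083; edgeR adjusted p = 1.39e-08). Tnfsf13b (BAFF, a survival factor of B cells) had 0.741, 1.01 and 1.11 CPM in PT and 2.65, 3.37 and 3.74 CPM in EL. Its log2 fold change was -1.76 (SE 0.19; edgeR adjusted p = 1.66e-06), from 154 counts in PT and 392 in EL.

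Co-stimulatory ligands, known from antigen-presenting cells that activate T cells, showed the largest decreases among the ligands. Tnfsf9, the ligand of Tnfrsf9, had 1.07, 0.993 and 1.11 CPM in PT and 11.1, 10.6 and 12.8 CPM in EL. Tnfsf8, the ligand of Tnfrsf8, had 0.390, 0.506 and 0.647 CPM in PT and 3.24, 2.17 and 3.49 CPM in EL. All PT libraries lay below all EL libraries for both genes, with log2 fold changes of -3.44 (SE 0.12; edgeR adjusted p = 1.46e-11) for Tnfsf9 and -2.51 (SE 0.24; edgeR adjusted p = 4.73e-07) for Tnfsf8. For Tnfsf9, 14.9% of the exon bases lie under an antisense gene, and the strand setting of the counting is not given in the sources used here.

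Tnfsf18, the ligand of Tnfrsf18, falls in the rows that the table of EL replicate 1 lacks, and was compared in the 5 complete libraries. It had 7, 7 and 9 counts in PT (0.132, 0.127 and 0.156 CPM) and 502 and 372 counts in EL replicates 2 and 3 (12.2 and 8.99 CPM). PT and EL were far apart, 75.3-fold (log2 fold change -6.23, SE 0.21; edgeR adjusted p = 1.35e-18), in a comparison in which 79.2% of 15406 genes were called and 40.2% were lower. Its direction and call were kept under the alternatives run. The log2 fold change was -6.00 without EL replicate 2 and -6.44 without EL replicate 3, settings that leave 1 EL library, which is then assumed to vary as the PT libraries do.

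Among the other ligands, Lta (0.611 to 0.805 CPM in PT, 0.565 to 0.797 CPM in EL), Ltb (0.546 to 0.787 CPM in PT, 0.344 to 0.730 CPM in EL) and Tnfsf15 (0.624 to 0.693 CPM in PT, 0.368 to 0.673 CPM in EL) overlapped between the groups. Lta and Ltb form the lymphotoxin trimers, and Tnfsf15 (TL1A) is the ligand of Tnfrsf25. Their log2 fold changes were 0.07 (SE 0.24), 0.22 (SE 0.29) and 0.28 (SE 0.26), and at 65 to 112 counts per group a difference of that size was not detectable.

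All 6 death domain receptors were called, 2 higher and 4 lower in PT, where 80.7% of all genes tested were called. Tnfrsf1a, the receptor that starts most TNF signalling (chromosome 6, 125349723 to 125362483), had 116, 113 and 114 CPM in PT and 241, 236 and 231 CPM in EL. It was thus lower where its ligand Tnf was higher, with a log2 fold change of -1.05 (SE 0.030; edgeR adjusted p = 2.27e-12) and no overlap. Edar, the ectodysplasin receptor of skin and gland buds, had 7.02, 7.42 and 7.06 CPM in PT and 1.84, 1.94 and 1.77 CPM in EL. At 3.87-fold this was the largest increase among the tested members (log2 fold change 1.95, SE 0.10; edgeR adjusted p = 1.37e-09). Ngfr, the low-affinity neurotrophin receptor, had 1.09, 0.637 and 0.719 CPM in PT and 7.71, 6.39 and 6.55 CPM in EL. Ngfr was 8.46-fold lower (log2 fold change -3.08, SE 0.17; edgeR adjusted p = 1.90e-09). It is also known from basal mammary cells, stroma and glia. The basal markers did not move one way: Krt5 and Acta2 were lower in PT (log2 fold changes -8.49 and -2.70) and Oxtr and Krt17 were higher (3.52 and 2.79). Their part in the Ngfr value was not tested.

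Among the other death domain receptors, Tnfrsf10b and Tnfrsf21 differed less, and Tnfrsf25 about as much as Tnfrsf1a. Tnfrsf10b, the mouse TRAIL death receptor, had 26.2, 25.4 and 25.9 CPM in PT and 21.7, 20.6 and 23.5 CPM in EL. Tnfrsf21 (death receptor 6), known from neurons and lymphocytes, had 134, 131 and 135 CPM in PT and 167, 150 and 158 CPM in EL. Both sets of libraries stayed apart, by 1.18-fold upward for Tnfrsf10b (log2 fold change 0.23, SE 0.053; edgeR adjusted p = 0.00131) and 1.19-fold downward for Tnfrsf21 (log2 fold change -0.25, SE 0.039; edgeR adjusted p = 6.32e-05). The call for Tnfrsf21 was lost when libraries were scaled by their totals alone, without TMM factors (-0.00043, adjusted p = 0.992), a scaling that moved the log2 fold changes of all genes by a median of 0.25. Tnfrsf25, the receptor of Tnfsf15, had 0.566, 0.768 and 0.485 CPM in PT and 1.15, 1.13 and 1.54 CPM in EL. Its log2 fold change was -1.07 (SE 0.23; edgeR adjusted p = 9.17e-04).

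**Figure D3:**
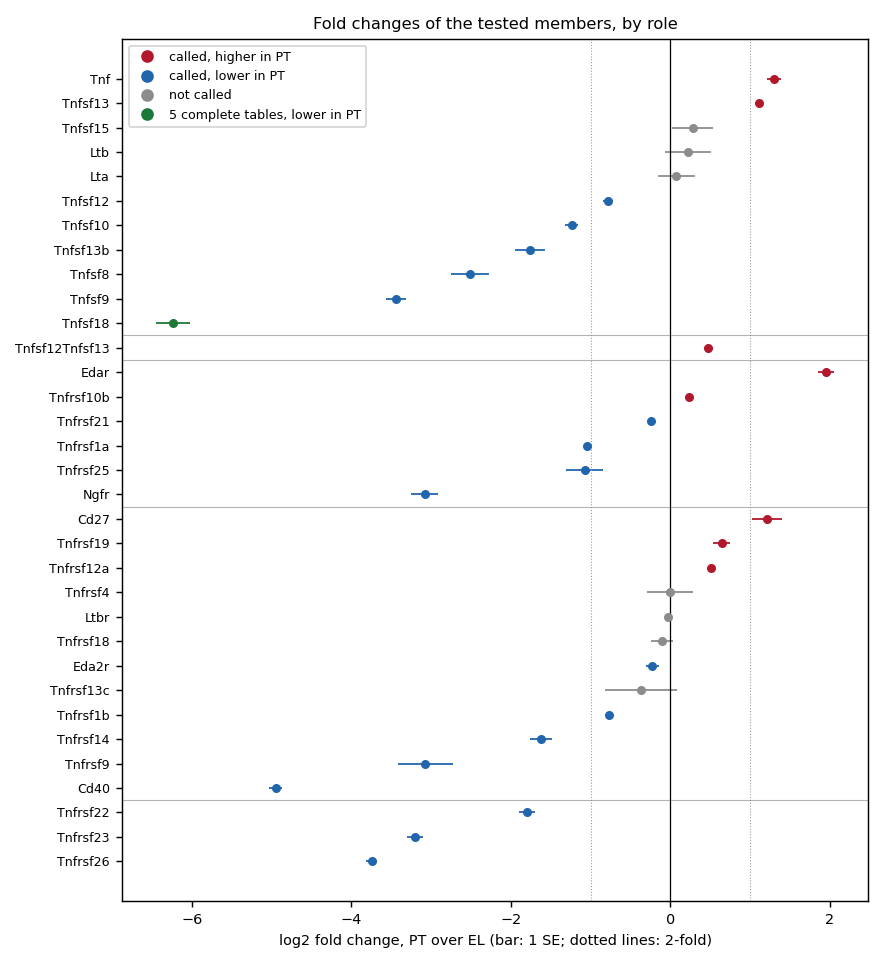
Log2 fold changes (PT over EL) of the tested members with 1 standard error, by role, with 2-fold marked by dotted lines. Edar is highest at 1.95, Cd40 is lowest of the genes in all libraries at -4.94, and Tnfsf18, from 5 complete libraries, is at -6.23.

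The receptors that bind TRAF adaptors were mixed, with 12 of 15 tested, 3 higher, 5 lower and 4 not called (background 39.9% higher and 40.8% lower). Cd40, the receptor through which T cells license B cells, dendritic cells and macrophages (chromosome 2, 165055614 to 165071654), had 1.19, 0.974 and 1.01 CPM in PT and 33.2, 31.4 and 33.0 CPM in EL. The 30.8-fold decrease was the largest of any member in all libraries (log2 fold change -4.94, SE 0.081; edgeR adjusted p = 8.39e-15), and 94.9% of all genes tested changed less. Cd40 did not follow the summed macrophage markers, which were higher in PT. Dendritic cell markers summed to 14.96 to 18.9 CPM in PT and 14.98 to 17.2 CPM in EL, a sum carried by Itgax, which was higher in PT (13.3 ± 2.06 CPM in PT, 7.403 ± 0.901 CPM in EL). The other 3 tested dendritic markers were lower in PT, as Cd40 was: Ccr7, Clec9a and Zbtb46, with log2 fold changes of -7.06, -4.84 and -1.07. Of these, Ccr7 and Clec9a were at low levels, averaging 1.19 and 0.431 CPM in EL. Flt3 was at 0 in PT and Cd209a at 0 in both groups. B cell and plasma cell markers summed to 206 to 211 CPM in PT and 775 to 800 CPM in EL, nearly all of it Sdc1, which other cells also make (203 ± 2.20 CPM in PT, 781 ± 14.4 CPM in EL). Of the other tested markers of that list, Cd22 was higher in PT (4.98 ± 0.413 CPM in PT, 2.84 ± 0.601 CPM in EL) and Blk and Igj were lower, and Ms4a1 was at 0 in PT and at 35 counts over the EL libraries. Fibroblast and endothelial markers, given above, were lower in PT as well, all 10 in each list. The part of any of these cells in the Cd40 result was not tested.

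Tnfrsf9, a co-stimulatory receptor of activated T and NK cells, had 0.975, 1.16 and 0.772 CPM in PT and 3.88, 10.8 and 9.77 CPM in EL. EL replicate 1 lay well below the other EL libraries but above all PT libraries (log2 fold change -3.07, SE 0.34; edgeR adjusted p = 2.54e-06). Markers of T and NK cells summed to 1.27 to 1.92 CPM in PT and 5.16 to 6.29 CPM in EL, with Cd3e, Cd3g and Cd8a at 0 in PT and Ncr1 at 0 in EL, and their part was not tested. Tnfrsf14 (HVEM), a receptor of Tnfsf14, had 1.33, 1.27 and 1.204 CPM in PT and 4.40, 3.78 and 3.56 CPM in EL. It was apart in every library (log2 fold change -1.63, SE 0.14; edgeR adjusted p = 2.03e-07).

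Tnfrsf1b, the second TNF receptor, had 76.6, 85.6 and 78.2 CPM in PT and 131, 140 and 137 CPM in EL. Like Tnfrsf1a it was lower in every PT library (log2 fold change -0.76, SE 0.044; edgeR adjusted p = 2.94e-09). Eda2r, the X-linked receptor of an ectodysplasin isoform, had 11.6, 10.5 and 10.5 CPM in PT and 13.4, 11.4 and 13.3 CPM in EL. The groups overlapped. Eda2r was called at an adjusted p of 0.0181 by edgeR (log2 fold change -0.23, SE 0.079), and its sign changed with library totals (0.018, adjusted p = 0.833). The call was also lost with upper-quartile factors and when PT replicate 2, PT replicate 3 or EL replicate 3 was left out (adjusted p between 0.0648 and 0.0720).

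In the other direction, Tnfrsf12a, the receptor of Tnfsf12 and known as an injury-induced receptor of epithelium and stroma, had 271, 268 and 254 CPM in PT and 182, 187 and 186 CPM in EL. This receptor was 1.43-fold higher with no overlap (log2 fold change 0.51, SE 0.033; edgeR adjusted p = 8.73e-09). Tnfrsf19 (TROY), a Wnt-linked receptor of epithelial and neural progenitors, had 6.63, 7.96 and 6.97 CPM in PT and 4.15, 4.98 and 4.68 CPM in EL. Every PT library was above every EL library, with a log2 fold change of 0.64 (SE 0.11; edgeR adjusted p = 9.22e-05). Cd27, a receptor known from T and B lymphocytes, had 1.60, 1.82 and 1.44 CPM in PT and 0.663, 0.705 and 0.722 CPM in EL. That is 2.32-fold higher in PT (log2 fold change 1.21, SE 0.19; edgeR adjusted p = 6.15e-05), while the summed markers of T and NK cells were lower in PT and the B cell marker Cd22 was higher. Its ligand Cd70 had 2 counts in PT and 0 in EL over the 3 libraries of a group.

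Ltbr, the lymphotoxin receptor, was among the most abundant members and did not pass, with 109, 111 and 108 CPM in PT and 117, 108 and 110 CPM in EL. Its log2 fold change was -0.03 (SE 0.035; edgeR adjusted p = 0.398), and with library totals it was 0.21 and called (adjusted p = 1.00e-04). Tnfrsf18 had 3.65, 2.70 and 3.18 CPM in PT and 3.81, 3.40 and 3.01 CPM in EL. Tnfrsf18, Tnfrsf4 (0.485 to 0.993 CPM in PT, 0.579 to 0.933 CPM in EL) and Tnfrsf13c (0.0898 to 0.356 CPM in PT, 0.227 to 0.324 CPM in EL) overlapped between the groups and were not called. Tnfrsf4 and Tnfrsf18 are co-stimulatory receptors of T cells and Tnfrsf13c is the BAFF receptor of B cells. For Tnfrsf18, 25.3% of the exon bases lie under an antisense gene.

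All 3 decoy receptors were lower in PT, as were 40.8% of all genes tested. Tnfrsf23, a mouse decoy that binds TRAIL, had 10.9, 10.8 and 13.5 CPM in PT and 91.4, 117 and 116 CPM in EL. Tnfrsf26, its neighbour, was grouped with the decoys, though no ligand was paired with it below. Its levels were 3.26, 4.16 and 3.61 CPM in PT and 49.2, 48.5 and 50.1 CPM in EL. Tnfrsf22, the other TRAIL-binding decoy, had 2.11, 2.06 and 2.19 CPM in PT and 7.44, 6.92 and 7.75 CPM in EL. No PT library reached an EL library for any of them. The decreases were 9.21-fold for Tnfrsf23 (log2 fold change -3.20, SE 0.10; edgeR adjusted p = 5.96e-12), 13.4-fold for Tnfrsf26 (-3.74, SE 0.068; edgeR adjusted p = 2.18e-14) and 3.47-fold for Tnfrsf22 (-1.80, SE 0.10; edgeR adjusted p = 2.79e-09). The near identity shown above bears on these values: 25.9% of the 50-base words of Tnfrsf22 and 33.4% of those of Tnfrsf23 occur in other genes, each other included. Tnfrsf26 shares no such words and fell most.

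A further 6 members did not pass the count filter. Tnfrsf13b, the APRIL and BAFF receptor, had 8, 13 and 5 counts in PT and 1, 2 and 2 in EL. Tnfsf4, the ligand of Tnfrsf4, had 5, 6 and 7 counts in PT and 17, 16 and 8 in EL. Tnfrsf8, the receptor of Tnfsf8, had 1, 2 and 1 counts in PT and 1, 10 and 9 in EL. Tnfrsf13b and Tnfsf4 did not overlap between the groups, and Tnfrsf8 did. With no filter, edgeR called Tnfrsf13b higher (log2 fold change 1.92; adjusted p = 0.0260) and Tnfsf4 and Tnfrsf8 lower (-1.56 and -2.60; adjusted p = 0.00709 and 0.0145). Cd70, Tnfrsf17 (the plasma cell receptor BCMA) and Tnfsf14 (LIGHT) had 1 to 16 counts over a group or none, and were not called. In all, 11 of the 38 members stayed under 1 CPM in every library.

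In CPM, not scaled to length, 5 receptors and no ligand exceeded 100 CPM in every library of a group. Levels were then compared between members per kilobase of transcript. Tnfrsf12a was first in both groups, with 269 ± 9.27 CPM per kb in PT and 188 ± 2.48 CPM per kb in EL (SD, n = 3 each). Tnfrsf1a followed with 53.0 ± 0.728 CPM per kb in PT and 109 ± 2.30 CPM per kb in EL. Ltbr, with 51.8 ± 0.682 CPM per kb in PT, lay within 2 SD of Tnfrsf1a there. Tnfrsf23 was at 7.95 ± 1.03 CPM per kb and place 11 in PT and 73.4 ± 9.87 CPM per kb and place 3 in EL. Tnfsf13 was the highest ligand in PT, at 31.6 ± 1.46 CPM per kb (EL 14.7 ± 0.928 CPM per kb), and Tnfsf12 the highest in EL, at 15.4 ± 0.834 CPM per kb (PT 8.95 ± 0.357 CPM per kb). In EL, Tnfsf12 and Tnfsf13 lay within their spread. Tnf was place 8 in PT with 12.5 ± 0.780 CPM per kb and place 14 in EL with 5.09 ± 0.662 CPM per kb. Cd40 was place 27 in PT with 0.354 ± 0.039 CPM per kb and place 11 in EL with 10.9 ± 0.326 CPM per kb.

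**Figure D4:**
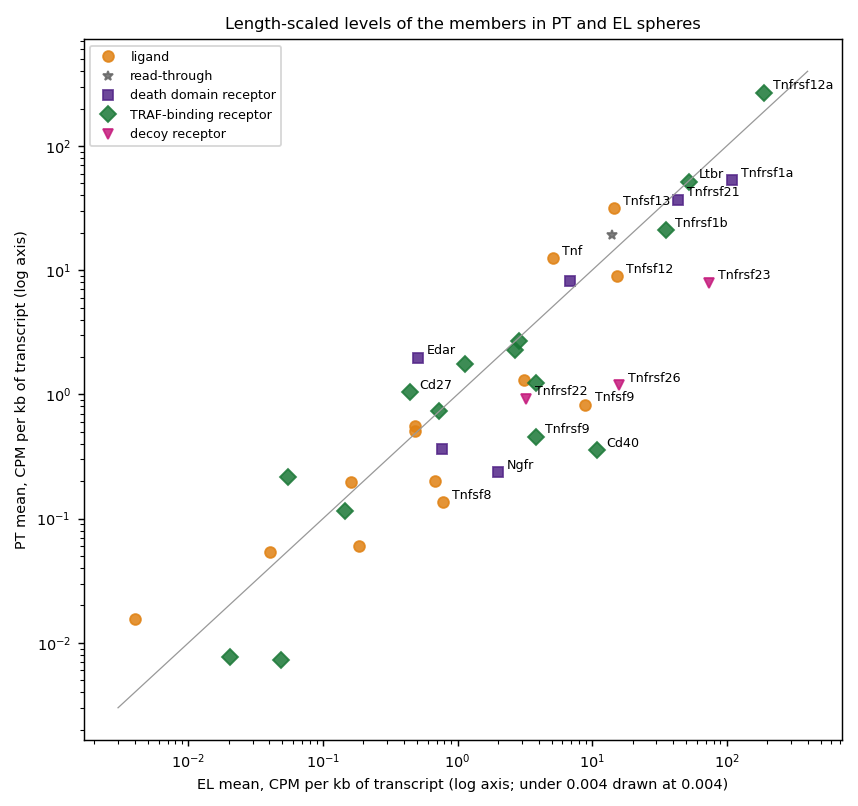
Mean level of each member in CPM per kb of transcript in PT (vertical, log axis) and EL spheres (horizontal, log axis), 1 point per member, shaped by role, with a line of equal levels. Tnfrsf12a is highest in both groups, Tnf, Tnfsf13, Edar and Cd27 lie above the line, and the decoys, Cd40 and Tnfsf9 lie well below it.

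Ligands and their receptors were set side by side for 25 textbook pairs. In 5 pairs the partners were called in opposite directions. Tnf was higher in PT with Tnfrsf1a and Tnfrsf1b lower, Tnfsf12 was lower with Tnfrsf12a higher, Tnfsf10 was lower with Tnfrsf10b higher, and the ectodysplasin gene Eda was lower with Edar higher. In 4 pairs both partners were lower: Tnfsf9 with Tnfrsf9, Tnfsf10 with each of Tnfrsf22 and Tnfrsf23, and Eda with Eda2r. The last of these is the least firm, since Eda2r overlapped between the groups and both genes lost their calls with library totals. No pair had both partners called higher. The other 16 had a partner that was not called or not tested in all libraries, among them Cd40 with its ligand gene Cd40lg, which had 0 counts in all 6 libraries, and the Ltb and Ltbr pair. Pairs that share a gene are not independent, and mRNA levels carry no information on binding.

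Many members are neighbours in the genome, and neighbours did not always move together. Ltb, Tnf and Lta lie within 11.1 kb of chromosome 17 (35194507 to 35205578), and of these Tnf alone was called. Tnfrsf26, Tnfrsf22 and Tnfrsf23 lie within 78.8 kb of chromosome 7 (143607685 to 143686436), and all were lower. Cd27, Ltbr and Tnfrsf1a span 129.9 kb of chromosome 6 (125232620 to 125362483), with Cd27 higher, Ltbr not called and Tnfrsf1a lower. Tnfrsf4 and Tnfrsf18, within 15.3 kb on chromosome 4, were both not called. Chromosome 4 held 9 members and chromosome 17 held 8.

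Genes that act with the receptors were counted from 6 lists of 76 genes, of which 71 were tested and 60 called, 30 higher and 30 lower (84.5%, background 80.7%). With library totals the split was 42 higher and 17 lower. Of family genes with other symbols, the death receptor gene Fas averaged 25.3 ± 0.140 CPM in PT and 9.40 ± 0.386 CPM in EL (log2 fold change 1.43, SE 0.055). Relt, a further receptor, was lower, with 1.87 ± 0.342 CPM in PT and 10.4 ± 0.573 CPM in EL, and Eda was lower at 3.68 ± 0.247 CPM in PT and 4.75 ± 0.191 CPM in EL. The Fas ligand gene Fasl had 0 counts in PT and 2 in EL.

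Adaptors moved little: of 15 tested, 6 were higher and 5 lower, none over 2-fold. Among all genes tested, 39.9% were higher, 40.8% lower and 28.8% called over 2-fold. Traf2, Traf4 and Traf6, ubiquitin ligases or scaffolds under the receptors, were higher, Traf6 at 85.2 ± 1.49 CPM in PT and 58.9 ± 2.27 CPM in EL. Ripk1, the kinase that branches TNF signalling between survival and death, was lower (log2 fold change -0.32, SE 0.034). Of 12 death signalling genes, 5 were higher and 4 lower. Ripk3, the kinase of necroptosis, had 2.50, 2.19 and 2.66 CPM in PT and 103, 98.4 and 96.7 CPM in EL, a 40.4-fold decrease (log2 fold change -5.34, SE 0.060; edgeR adjusted p = 3.48e-16). Its substrate Mlkl, the pore-forming effector, was lower too, at 8.93 ± 0.326 CPM in PT and 26.7 ± 1.27 CPM in EL. Bid, which links caspase-8 to mitochondria, and the deubiquitinase gene Cyld were higher (0.91 and 0.90 on the log2 scale).

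Of 16 kinases and NF-kB factors, 11 were higher and 3 lower, with a median log2 fold change of 0.23 and none over 2-fold. Over all genes tested, 39.9% were higher, 40.8% lower and 28.8% called over 2-fold, with a median log2 fold change of 0.0049. Rela, the main NF-kB transactivator, averaged 151 ± 3.00 CPM in PT and 90.4 ± 1.65 CPM in EL. Ikbkb, of the canonical kinase complex, and Map3k5 were also higher, while Map3k14, the kinase of the non-canonical branch that CD40, BAFF and lymphotoxin receptors use, was lower (log2 fold change -0.70, SE 0.059). The list shift is of the size of the median shift of 0.25 between scalings.

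NF-kB feedback and target genes were split, 7 higher and 11 lower of 19 tested, and 13 of them changed over 2-fold (background 39.9% higher, 40.8% lower and 28.8% over 2-fold). The feedback inhibitors Nfkbia (158 ± 7.18 CPM in PT, 63.6 ± 3.03 CPM in EL) and Tnfaip3 (175 ± 6.76 CPM in PT, 58.5 ± 3.30 CPM in EL) and the immediate early gene Ier3 (459 ± 6.08 CPM in PT, 160 ± 6.06 CPM in EL) were higher, with log2 fold changes of 1.31, 1.58 and 1.52. Tnfaip2, another TNF-induced gene, was lower, at 27.2 ± 0.978 CPM in PT and 214 ± 4.39 CPM in EL. Of 6 genes for the processing of ligands and receptors, 5 were lower and none higher. The largest change there was in Timp3, an inhibitor of the TNF-releasing protease and a matrix protein of stroma, at 154 ± 6.72 CPM in PT and 2301 ± 457 CPM in EL. Adam17, that protease, was not called. With library totals the calls for Adam10, Furin, Rhbdf1, Eda and Ripk1 were lost (log2 fold changes -0.026, -0.052, -0.058, -0.12 and -0.068).

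**Figure D5:**
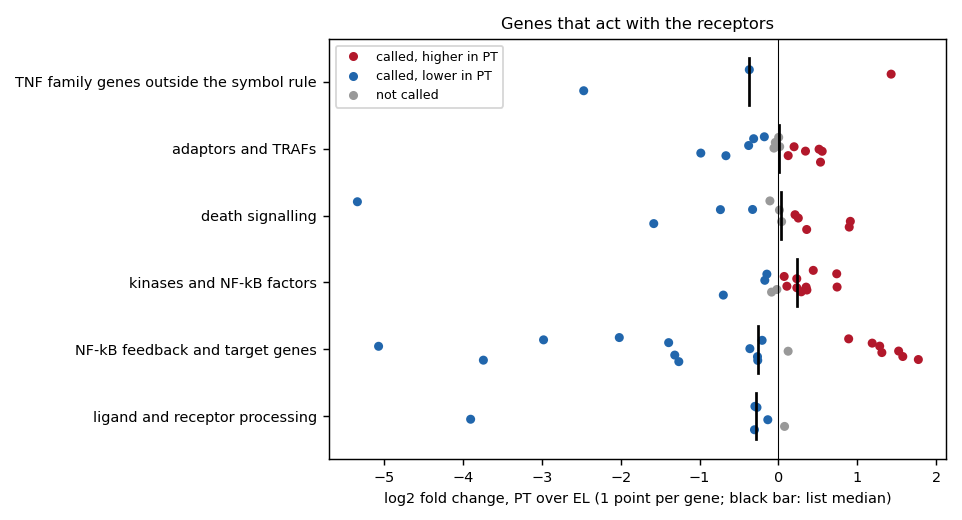
Log2 fold changes (PT over EL) of the tested genes of 6 lists of genes that act with the receptors, 1 point per gene, with the list median as a black bar. Ripk3 lies lowest among the death signalling genes at -5.34, and the target gene list spreads to both sides, with Tnfaip3, Ier3 and Nfkbia above 1.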

How the data were processed

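The deposited tables hold raw counts per RefSeq transcript, 1 table per library, made by the authors. Tools named in the submitters' processing notes are STAR, featureCounts and DESeq2, and builds named there are mm10 and hg19. The sources used here state no tool version and no strand setting. Transcripts of a symbol can share reads, so totals over transcripts may exceed the reads. For each symbol the transcript with the highest mean count was kept. The members, gene lists, pairs and motifs were chosen with earlier results of these data known.

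The test was edgeR 4.0.16 (R 4.3.3) with filterByExpr, TMM factors (0.914 to 0.922 in EL, near 1.09 in PT), quasi-likelihood test, Benjamini-Hochberg adjustment over all genes, threshold 0.05. A trial on simulated counts changed far fewer genes than differ here, with equal numbers raised and lowered. It therefore does not test the scaling under shifts as wide as these. CPM are counts scaled to the TMM-adjusted total of the chosen transcripts that passed the filter, not of all transcripts. Before the filter, chosen transcripts summed to 47029670 to 51117359 counts in PT and 43278382 to 44166281 in EL. The setting named library totals used the filtered sums without TMM factors. DESeq2 1.42.0, limma 3.58.1 (voom), other scalings, filters, transcript sums, complete tables, a replicate block, a 2-fold minimum and leaving out each library were alternatives. Libraries of a group differed beyond sampling noise (chi-square per degree of freedom 2.82 to 12.2) and were counted singly.

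Members that passed the test or reached 1 CPM in a library are given per library; from each other list up to 4 genes with the smallest p-value have values. Some genes of these lists are not reported here. Exon overlap and shared 50-base words came from GENCODE M21, which matched all 39 members. Python 3.11.15 was used for annotation. Intervals were not computed. The standard errors were derived from each log2 fold change and its quasi-likelihood p-value, and cover the spread between libraries.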

Additional observations from a re-analysis of the deposited data

How the results depend on the processing

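Of the 25 called members, 23 kept direction and call under 17 settings of scaling, tool, filter, tables and libraries; Eda2r and Tnfrsf21 did not. Called members numbered 24 to 28 under these settings, and 25 to 26 (8 higher, 17 to 18 lower) when a library was left out. Pathway genes called were 55 to 61 without a library (27 to 31 higher, 28 to 31 lower). Against a 2-fold minimum, 14 members (3 higher, 11 lower) and 15 pathway genes (5 higher, 10 lower) were called, a stricter test by construction; Tnfrsf1a, Tnfrsf25 and Cd27, over 2-fold, did not pass it. With library totals 17 pathway genes were lower. Leaving out replicate 1 of both groups, and leaving out the read-through symbol, both added after seeing the data, gave 25 and 24 called members. With a replicate block 25 members and 61 pathway genes were called. Deviations of same-numbered libraries had r of 0.022, 0.0084 and -0.0022, within the range of differently numbered ones (-0.0309 to 0.0265). These values show no pairing by number, but with so few libraries they cannot exclude a shared origin.

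Among the tested members and the 65 other genes run singly under the settings, sign changes were confined to Eda2r and 6 uncalled members. The cause was not tested. Further genes named in the text, such as Cflar, Adam17, Casp8 and Il6, were not run singly under them. With library totals, log2 fold changes were 0.018 for Eda2r, 0.21 for Ltbr, 0.14 for Tnfrsf18 and 0.24 for Tnfrsf4; with upper-quartile factors, 0.023 for Ltbr and 0.047 for Tnfrsf4. With the complete tables, Lta was at -0.036, Ltb at -0.039 and Tnfrsf4 at 0.17. Without EL replicate 1, Lta was at -0.030, Ltb at -0.033, Ltbr at 0.0020 and Tnfrsf4 at 0.18. Without PT replicate 2, Lta was at -0.036 and Tnfrsf18 at 0.0035; without PT replicate 3, Tnfrsf13c was at 0.025 and Tnfrsf4 at 0.24. Without replicate 1 in both groups, Lta was at -0.013, Ltbr at 0.0043 and Tnfrsf4 at 0.15. Tnfrsf4 was at 0.0045 with no filter and at 0.0027 with summed transcripts. Over all settings without a library, the range was -0.036 to 0.23 for Lta, -0.033 to 0.46 for Ltb, -0.055 to 0.0043 for Ltbr, -0.90 to 0.025 for Tnfrsf13c, -0.21 to 0.0035 for Tnfrsf18 and -0.26 to 0.24 for Tnfrsf4. Depth limits the 11 members under 1 CPM, and spread between mice cannot be separated from technical spread.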

Other observations

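Several secreted products among the NF-kB target genes, chosen here after their values were seen, differed between the groups in both directions. Il6, an inflammatory cytokine, averaged 0.167 ± 0.042 CPM in PT and 5.74 ± 1.63 CPM in EL (SD, n = 3 each; log2 fold change -5.07, SE 0.30; edgeR adjusted p = 3.31e-09). Cxcl5, a neutrophil chemokine, averaged 5.01 ± 0.206 CPM in PT and 67.0 ± 15.6 CPM in EL, and Ccl2, a monocyte chemokine, 12.8 ± 2.57 CPM in PT and 51.9 ± 4.01 CPM in EL. The chemokine Ccl20 was higher, at 2.81 ± 0.096 CPM in PT and 0.820 ± 0.199 CPM in EL, and Cxcl1, another neutrophil chemokine, at 49.2 ± 2.54 CPM in PT and 26.5 ± 1.80 CPM in EL. The adhesion genes Icam1 and Vcam1 were lower in PT, with log2 fold changes of -1.39 (SE 0.053) and -1.26 (SE 0.095).

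Casp8, the initiator caspase of death receptors, also chosen after its values were seen, averaged 41.0 ± 1.52 CPM in PT and 68.2 ± 3.02 CPM in EL. Its regulator gene Cflar was not called (log2 fold change 0.01, SE 0.038; edgeR adjusted p = 0.773).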
